A study of Homo sapiens with 6 samples.

Results

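The genes described here are 10 classical markers and regulators of the epithelial to mesenchymal transition (EMT), which are CDH1, CDH2, VIM, FN1, S100A4, ZEB1, ZEB2, SNAI1, SNAI2 and TWIST1. They were taken by symbol from a table of 26184 genes and loci, of which 19974 are annotated genes, and each symbol matched 1 row. RNA sequencing was carried out on 3 Huh7 P and 3 Huh7 LR samples, so that the expression of these genes could be compared between a parental line and a line resistant to lenvatinib, an inhibitor of several receptor tyrosine kinases. Huh7 is an established human hepatocellular carcinoma cell line, and the labels give the genotype of every sample as WT. Huh7 P was labelled as untreated. Huh7 LR was derived from it by lenvatinib raised from 1 to 20 μM over 10 months. A single resistant line was made, so that the drug and the separate culture cannot be told apart, and although the line was maintained in medium with 20 μM lenvatinib, its presence in the cultures taken for RNA is not stated. The 3 samples of each line are called independent, but no source says that they came from separate cultures, so the p-values below measure the spread between these samples.

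EMT is a programme in which epithelial cells loosen their contacts, reorganise their cytoskeleton and become more motile. E-cadherin and keratins mark the epithelial state, whereas N-cadherin, vimentin and fibronectin mark the mesenchymal state. The zinc finger proteins of the ZEB and SNAI families and the basic helix-loop-helix protein TWIST1 are transcription factors that repress CDH1, mostly through short E-box sequences. In liver cancer the programme is known for its association with invasion and with resistance to drugs, and many tumour cells hold both states at once.

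The libraries held between 62738937 and 71427573 counts, and levels are given as CPM, the counts scaled to the library size with the TMM factors of edgeR. Where a gene had 0 counts, up to 3 remain possible at this depth, or 0.042 to 0.048 CPM, a limit for counting error only. Of 10 hepatocyte markers all 10 were tested, with 6 (60%) higher, among them FGB (log2 fold change 2.49) and AHSG (1.73), and 4 not past 0.05, where 23.3% of all genes and loci tested were higher and 22.4% lower. Their summed level was 43708 to 52845 CPM in Huh7 P and 56226 to 59335 CPM in Huh7 LR. The summed level of 9 fibroblast markers was 3.79 to 4.25 CPM in Huh7 P and 7.61 to 11.1 CPM in Huh7 LR, with DCN and THY1 at 0 counts, COL1A1, PDGFRB and TAGLN higher and ACTA2 tested without passing. COL1A2, COL3A1 and LUM were too low to test. Of 6 endothelial markers CDH5, TEK, KDR and EMCN were at 0 counts, while PECAM1 and VWF were higher, and the 6 summed to 38.8 to 47.5 CPM in Huh7 P and 65.0 to 71.2 CPM in Huh7 LR, nearly all from PECAM1. Of 7 leukocyte markers TYROBP and HLA-DRA were at 0 counts and the 2 tested did not pass. By Spearman's correlation across genes, a coarse measure, no library stood apart from its line, with 0.991 to 0.995 within a line and 0.974 to 0.976 between the lines.

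The short window before the transcription start is shown for 2 members on chromosome 10 that differed in opposite directions between the lines, ZEB1 (lower in Huh7 LR) and VIM (higher). The windows are the 250 bases before the start in RefSeq (GRCh38.p14, plus strand), chr10:31318167-31318416 for ZEB1 and chr10:17227991-17228240 for VIM. Capitals mark the only E-box of the letters CAGGTG or, on the other strand, CACCTG, which the ZEB and SNAI factors are known to recognise.
ZEB1: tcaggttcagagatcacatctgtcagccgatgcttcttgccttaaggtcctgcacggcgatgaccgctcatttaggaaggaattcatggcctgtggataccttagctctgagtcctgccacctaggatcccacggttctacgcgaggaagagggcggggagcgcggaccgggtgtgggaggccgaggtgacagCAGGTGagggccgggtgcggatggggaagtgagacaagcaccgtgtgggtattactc
VIM: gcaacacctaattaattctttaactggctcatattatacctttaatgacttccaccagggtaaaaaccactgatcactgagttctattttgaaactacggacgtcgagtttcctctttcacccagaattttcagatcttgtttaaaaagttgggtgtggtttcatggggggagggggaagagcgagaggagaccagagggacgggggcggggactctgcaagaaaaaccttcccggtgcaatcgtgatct
The E-box of ZEB1 lies 57 to 52 bases before this RefSeq start. For ZEB1 and VIM the start in GENCODE lies further downstream and the first bases after the RefSeq start were found in no GENCODE transcript of the gene, so positions depend on the annotation. Windows were found for 6 of the 10 members, and besides ZEB1 only that of S100A4 held the motif, 164 to 159 bases before the start, while those of VIM, FN1, CDH2 and ZEB2 had no match. Of all 35114 promoter windows of the same length, 6143 (17.5%) held these letters. A match describes letters in this window, and binding was not measured.

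Of the 10 genes, 7 passed the filter on low counts and were tested, and VIM, CDH1 and FN1 were higher and ZEB1 and S100A4 lower in Huh7 LR, while CDH2 and SNAI1 did not pass. ZEB2 was near the limit of detection, and SNAI2 and TWIST1 had no counts in any library. The lines were compared with the quasi-likelihood test of edgeR, and every adjusted p is Benjamini-Hochberg adjusted over all genes and loci tested. With a threshold of 0.05 for that p, 5 of the 7 differed, against 45.7% of the 17531 genes and loci tested. The 3 higher members stand beside 23.3% of all tested that were higher, and the 2 lower members beside 22.4% that were lower. With the stricter threshold of 0.001 and a difference of more than 2-fold, 2 members were called, VIM higher and ZEB1 lower, where 6.21% of all tested were called, 4.43% higher and 1.78% lower. In 6 of the 7, every Huh7 LR library lay on one side of every Huh7 P library, as in 55.9% of all genes and loci tested. The median log2 fold change of the 7 was 0.12, beside 0.00 over all tested. In bulk RNA a lower level in every cell and fewer cells with the transcript cannot be told apart.

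**Figure D1:**
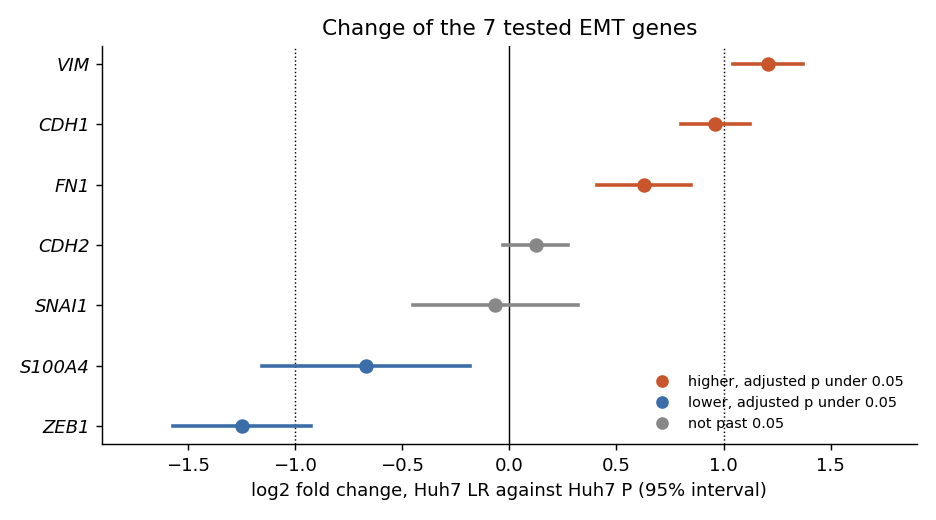
Log2 fold change of the 7 tested EMT genes in Huh7 LR against Huh7 P (horizontal axis), with bars for the 95% interval from edgeR's quasi-likelihood fit to 3 libraries per line and dotted lines at 2-fold. VIM (1.21), CDH1 (0.96) and FN1 (0.63) lie to the right of 0 and ZEB1 (-1.25) and S100A4 (-0.67) to the left, while the intervals of CDH2 and SNAI1 cross 0.

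CDH1 (ENSG00000039068, chromosome 16, 68737225 to 68835548, plus strand, GRCh38) encodes E-cadherin, the calcium-dependent adhesion molecule of epithelial junctions. It had 264, 259.6 and 249 CPM in Huh7 P and 542, 478 and 486 CPM in Huh7 LR. All 3 Huh7 LR libraries lay far above all 3 Huh7 P libraries. The level rose from a mean of 258 ± 7.80 CPM (SD, n = 3) to one of 502 ± 35.3 CPM (SD, n = 3). The log2 difference was 0.96 (SE 0.07, adjusted p = 2.97e-06 by edgeR's test). The fold was 1.95, with a 95% interval of 1.74 to 2.18 that spans 2-fold, and without Huh7 LR replicate 2 the log2 fold change was 1.005 and CDH1 was called past 2-fold. The epithelial cadherin was thus higher, not lower, in the resistant line.

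CDH2 (ENSG00000170558, chromosome 18, 27950966 to 28177446, minus strand) encodes N-cadherin, the cadherin of neural and mesenchymal cells, which is also found in hepatocytes. It had 144, 144 and 142 CPM in Huh7 P and 151, 167 and 150.1 CPM in Huh7 LR. The lines did not overlap, but the gap between the highest Huh7 P and the lowest Huh7 LR library was small beside the spread within Huh7 LR. The log2 fold change was 0.12 (SE 0.07, adjusted p = 0.17 by edgeR's test), with a 95% interval of the fold from 0.981 to 1.21. Both cadherins were therefore present in both lines. On the per-length scale of FPKM, on which genes can be compared with each other, CDH1 went from 48.5 ± 1.93 (SD, n = 3) to 96.5 ± 7.77 (SD, n = 3) and CDH2 from 30.4 ± 0.577 (SD, n = 3) to 33.7 ± 1.85 (SD, n = 3).

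The ratio of CDH2 to CDH1 FPKM, a common summary of a cadherin switch, was 0.615, 0.624 and 0.641 in Huh7 P, while in Huh7 LR it was 0.313, 0.394 and 0.347. E-cadherin transcripts thus outnumbered N-cadherin transcripts per length in every library, and the ratio was lower in all 3 Huh7 LR libraries. Its mean was 0.627 ± 0.0132 (SD, n = 3) in Huh7 P and 0.352 ± 0.0408 (SD, n = 3) in Huh7 LR, 0.561 times as high. No test was run on this ratio, as the pair was chosen with the results known.

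VIM (ENSG00000026025, chromosome 10, 17228259 to 17237593, plus strand) encodes vimentin, the intermediate filament protein of mesenchymal cells. It had 132, 135 and 139 CPM in Huh7 P and 298, 340.5 and 299.5 CPM in Huh7 LR. The lines were clearly separate, with the highest value in Huh7 LR replicate 2. The level rose 2.31-fold (95% interval 2.06 to 2.58), from a mean of 136 ± 3.29 CPM (SD, n = 3) to one of 313 ± 24.2 CPM (SD, n = 3), that is 1.21 on the log2 scale (SE 0.07, adjusted p = 8.53e-07 by edgeR's test). The fibroblast markers COL1A1, PDGFRB and TAGLN and the endothelial marker PECAM1 were higher in the same libraries, with log2 fold changes of 1.84, 0.84, 0.57 and 0.64. The 9 fibroblast markers summed to 7.61 to 11.1 CPM there, against 3.79 to 4.25 CPM in Huh7 P. DCN and THY1 were at 0 counts. LUM, COL1A2 (mean 0.085 CPM in Huh7 P, 0.014 CPM in Huh7 LR) and COL3A1 (0.027 and 0.155 CPM) were too low to test. ACTA2 did not pass (log2 fold change 0.22, adjusted p = 0.769 by edgeR's test). Of the other endothelial markers VWF was higher, and CDH5, TEK, KDR and EMCN were at 0 counts. The part of these markers in the rise of VIM was not tested. A larger absolute log2 fold change than that of VIM was found in 8.94% of all genes and loci tested. No other gene of the table shares exon bases with VIM. Its antisense neighbours VIM-AS1 and AL133415.1 share 641 and 619 exon bases with it and were not analysed here. The strand setting of the counting is not given in the sources used here, and the kit named in the labels does not mark strand, with which reads from such partners cannot be told apart.

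Vimentin rose while KRT8 and KRT18, which encode the keratin pair of hepatocytes, did not pass the test. KRT18 had a mean of 255 FPKM in Huh7 P and 231 FPKM in Huh7 LR (log2 fold change -0.16, adjusted p = 0.239 by edgeR's test), and KRT8 one of 703 and 634 FPKM (log2 fold change -0.17, adjusted p = 0.423). Without Huh7 LR replicate 2 the value for KRT8 was -0.39 and passed (adjusted p = 0.0186), and without Huh7 LR replicate 1 it was 0.00 (adjusted p = 0.98). Both keratins have many processed pseudogenes, so their counts are uncertain where reads could be split. The ratio of VIM to KRT18 FPKM was 0.237, 0.253 and 0.285 in Huh7 P, while in Huh7 LR it was 0.701, 0.617 and 0.703. It was 2.61 times as high on average in Huh7 LR, without overlap between the lines. In contrast, the ratio of VIM to CDH1 overlapped, at 1.30 to 1.43 in Huh7 P and 1.42 to 1.83 in Huh7 LR, with means of 1.35 ± 0.0693 (SD, n = 3) and 1.61 ± 0.208 (SD, n = 3).

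**Figure D2:**
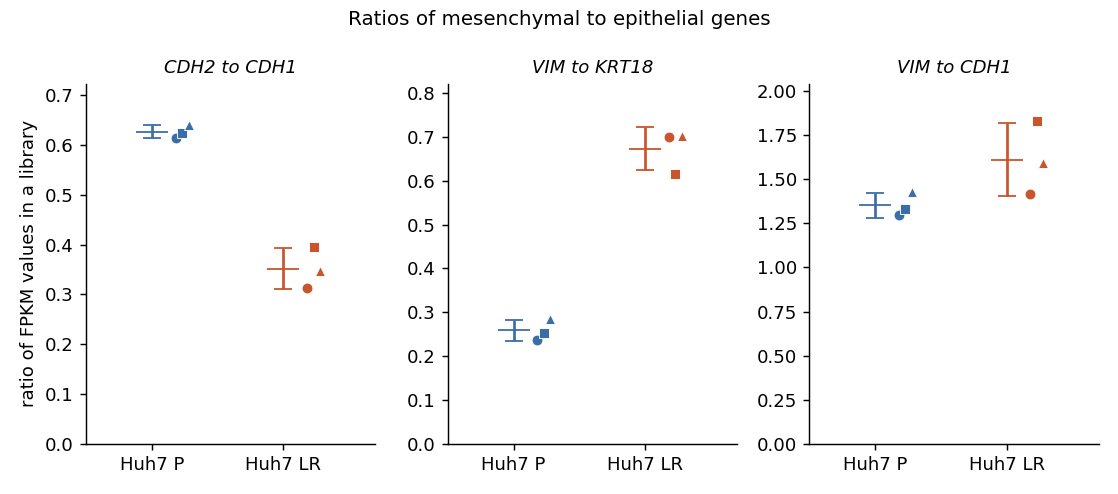
Ratios of FPKM values within each library (vertical axes, from 0) for CDH2 to CDH1, VIM to KRT18 and VIM to CDH1. Circles, squares and triangles are replicates 1, 2 and 3, and the horizontal line and bars beside them give the mean and SD of 3 libraries; the first ratio is lower in Huh7 LR (0.352 against 0.627), the second is higher (0.674 against 0.258) and the third overlaps.

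FN1 (ENSG00000115414, chromosome 2, 215360440 to 215436172, minus strand) encodes fibronectin, an adhesive glycoprotein of the extracellular matrix that hepatocytes also secrete into plasma. It had 3448, 3375 and 3285 CPM in Huh7 P and 4460.0, 6058 and 5108 CPM in Huh7 LR. All Huh7 LR libraries lay above all Huh7 P libraries, but they differed more among themselves, with replicate 2 highest and replicate 1 lowest. The level rose from a mean of 3369.6 ± 81.7 CPM (SD, n = 3) to one of 5209 ± 804 CPM (SD, n = 3), which is 0.63 on the log2 scale (SE 0.10, adjusted p = 0.000458 by edgeR's test) and a fold of 1.55 (95% interval 1.33 to 1.80). Of the 10 hepatocyte markers 6 were higher in the same libraries, and whether this is linked to the rise of FN1 was not tested. FN1 was the most abundant of the 10 EMT genes per length, at rank 117 of the 19974 annotated genes in Huh7 P and rank 71 in Huh7 LR by mean FPKM.

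S100A4 (ENSG00000196154, chromosome 1, 153543613 to 153550136, minus strand) encodes a small calcium-binding protein, also called fibroblast-specific protein, that is used as a mesenchymal marker. Its counts were low, at 133, 81 and 109 in Huh7 P against 73, 71 and 62 in Huh7 LR, or 1.85, 1.31 and 1.67 CPM against 1.12, 1.01 and 0.909 CPM. The lines did not overlap, but Huh7 P replicate 2 lay close to Huh7 LR replicate 1. The level fell from a mean of 1.61 ± 0.275 CPM (SD, n = 3) to one of 1.01 ± 0.106 CPM (SD, n = 3), which is -0.67 on the log2 scale (SE 0.22, adjusted p = 0.0285 by edgeR's test). This call was lost in DESeq2's Wald test (adjusted p = 0.0631) and in edgeR's test without Huh7 LR replicate 2 (adjusted p = 0.0551), without Huh7 LR replicate 3 (adjusted p = 0.0938), without Huh7 P replicate 1 (adjusted p = 0.109) and without Huh7 P replicate 3 (adjusted p = 0.075). The direction of this mesenchymal marker was opposite to that of VIM and FN1.

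ZEB1 (ENSG00000148516, chromosome 10, 31318495 to 31529814, plus strand) encodes a zinc finger and homeobox factor that represses CDH1 and other epithelial genes. It had 28.6, 25.4 and 27.5 CPM in Huh7 P and 13.1, 8.51 and 12.7 CPM in Huh7 LR. All 3 Huh7 LR libraries lay well below all 3 Huh7 P libraries, with replicate 2 the lowest. The level fell from a mean of 27.2 ± 1.62 CPM (SD, n = 3) to one of 11.5 ± 2.56 CPM (SD, n = 3), which is -1.25 on the log2 scale (SE 0.15, adjusted p = 5.29e-05 by edgeR's test), or 2.37-fold lower. The 95% interval of the log2 fold change was -1.57 to -0.93. ZEB1 was thus lower and CDH1, a gene it is known to repress, higher in the same 3 libraries, and whether the 2 changes are linked was not tested. ZEB1-AS1 shares 366 exon bases with ZEB1 on the other strand and was not analysed here.

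ZEB2 (ENSG00000169554, chromosome 2, 144364364 to 144524583, minus strand), the paralogue of ZEB1, was counted 3, 3 and 10 times in Huh7 P and 0, 0 and 3 times in Huh7 LR, too few to test. SNAI1 (ENSG00000124216, chromosome 20, 49982999 to 49988886, plus strand), which encodes Snail, had 9.17, 9.68 and 8.66 CPM in Huh7 P and 11.5, 6.69 and 8.08 CPM in Huh7 LR. The lines overlapped, and the Huh7 LR libraries lay on both sides of those of Huh7 P. The log2 fold change of SNAI1 was -0.07 (SE 0.17, adjusted p = 0.789 by edgeR's test), with a 95% interval of -0.45 to 0.32, and it was 0.11 without Huh7 LR replicate 2. SNAI2 (ENSG00000019549, chromosome 8, 48917604 to 48921740, minus strand), which encodes Slug, and TWIST1 (ENSG00000122691, chromosome 7, 19020991 to 19117672, minus strand) had 0 counts in all 6 libraries, which allows up to 0.048 CPM in a library. Of the 5 transcription factors, ZEB1 and SNAI1 were thus the ones with a measurable level in Huh7 cells, and of these ZEB1 passed the test.

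**Figure D3:**
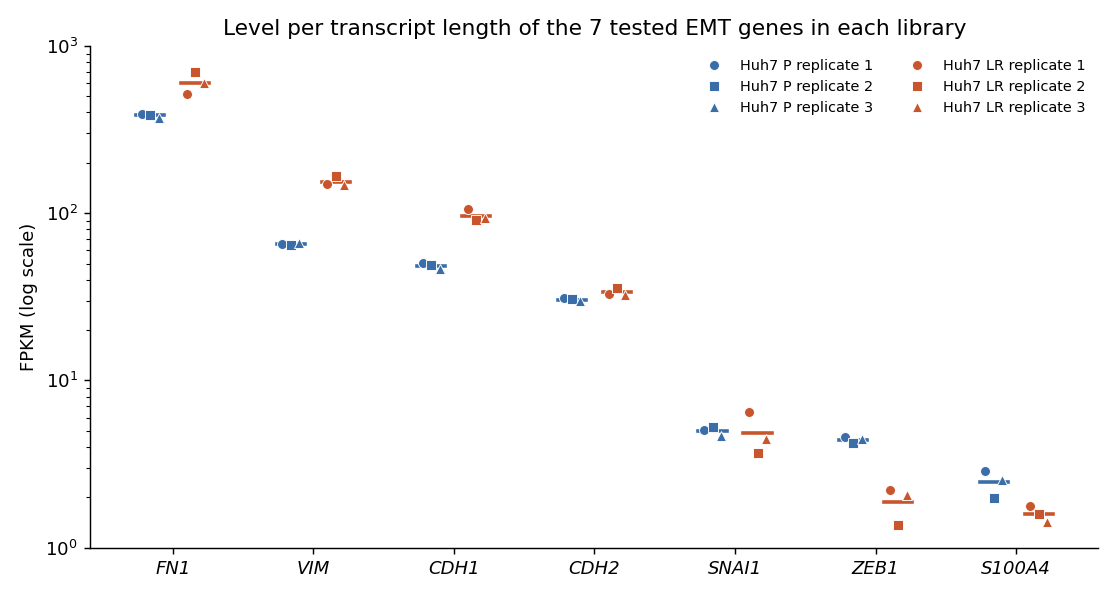
FPKM of the 7 tested EMT genes in each library (log scale), with Huh7 P in blue, Huh7 LR in orange, a symbol for each replicate and a horizontal line at the mean of 3 libraries. FN1 lies highest and S100A4 lowest by the mean in both lines, ZEB1 and S100A4 overlap in Huh7 LR, and the libraries of the lines overlap for SNAI1 alone.

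The order of the genes by mean FPKM was FN1, VIM, CDH1, CDH2, SNAI1, ZEB1, S100A4 and ZEB2 in Huh7 P and was the same in Huh7 LR. In Huh7 P no neighbours in this order overlapped, although SNAI1 at 4.99 ± 0.296 FPKM (SD, n = 3) and ZEB1 at 4.42 ± 0.191 FPKM (SD, n = 3) were close. In Huh7 LR, ZEB1 at 1.89 ± 0.461 FPKM (SD, n = 3) overlapped with S100A4 at 1.59 ± 0.173 FPKM (SD, n = 3), and SNAI1 at 4.87 ± 1.43 FPKM (SD, n = 3) stood above both. The structural markers and cadherins stood far above the factors. VIM moved from rank 922 to rank 308 of the annotated genes, CDH1 from rank 1309 to rank 551 and ZEB1 from rank 8375 to rank 10347.

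The 3 genes whose log2 CPM followed that of ZEB1 most closely over the 6 libraries, among 12275 annotated genes with at least 1 CPM, were FRYL, LTN1 and PDS5A, with Pearson's r of 0.9989, 0.9977 and 0.9976. These values describe 6 libraries that fall into 2 lines, and a gene that differs between the lines has a high r by that alone. Their log2 fold changes were -0.63, -0.60 and -0.41, smaller than that of ZEB1. The genes tested within 2 Mb on each side of a member moved in both directions around most members, and their counts stand beside 23.3% higher and 22.4% lower of all tested and a median of 0.00. Around CDH1 the median log2 fold change of 88 genes was -0.05, with 19 higher and 21 lower. The median was -0.19 over 14 genes around VIM (3 higher, 5 lower), -0.09 over 9 around FN1 (3 higher, 3 lower), -0.07 over 10 around ZEB1 (2 higher, 4 lower), -0.11 over 4 around CDH2 (1 higher, 1 lower), 0.07 over 70 around S100A4 (18 higher, 15 lower) and 0.04 over 23 around SNAI1 (5 higher, 5 lower). Around the members that were not tested, it was 0.44 over 8 genes for TWIST1 (5 of them higher), -0.28 over 5 for SNAI2 (1 higher, 3 lower) and -0.26 over 2 for ZEB2 (1 lower).

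The genes around the 10 members in the same programme were read from 8 lists, and each share below stands beside the 23.3% higher and 22.4% lower of all genes and loci tested. In the list of epithelial junction and keratin genes, 40 of 44 were tested, of which 15 (37.5%) were higher, 8 (20.0%) lower and 17 did not pass, with a median log2 fold change of 0.10. The largest rises were those of the tight junction genes CLDN14 (log2 fold change 2.15, adjusted p = 5.6e-06 by edgeR's test) and MARVELD3 (1.31, adjusted p = 0.000182) and of the gap junction gene GJB1 (1.06, adjusted p = 1.66e-06), the main connexin of hepatocytes. GJB1 was by far the most abundant of these, at 54.9 ± 3.59 FPKM (SD, n = 3) in Huh7 P and 117 ± 6.41 FPKM (SD, n = 3) in Huh7 LR.

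The list also held falls as large as its rises. PKP3, which encodes a desmosomal plakophilin, fell most (log2 fold change -3.14, adjusted p = 2e-05 by edgeR's test) from a mean of 1.53 CPM, the biliary and progenitor keratin KRT19 had -2.07 (adjusted p = 3.92e-07) and the protease inhibitor gene SPINT2 had -0.86 (adjusted p = 0.0113, and 0.0623 without Huh7 P replicate 2). KRT19 had 45.6, 52.8 and 53.0 CPM in Huh7 P and 10.4, 13.9 and 11.7 CPM in Huh7 LR. The epithelial genes thus did not move together. Among the catenins, which link cadherins to actin, CTNNB1, CTNNA1 and CTNND1 did not pass, with log2 fold changes of 0.10, -0.07 and 0.03, while JUP, which encodes plakoglobin, rose with 0.59 (adjusted p = 0.000128). These 4 genes are in the same list but were named after their values were seen.

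Of 16 epithelial regulators 13 were tested, with 5 (38.5%) higher and 2 (15.4%) lower and a median log2 fold change of 0.16. KLF4 (log2 fold change 1.24, adjusted p = 0.000712 by edgeR's test), GRHL1 (0.63, adjusted p = 0.00225) and CEBPA (0.58, adjusted p = 5.55e-05), which encode transcription factors of epithelial and hepatocyte differentiation, rose, and EHF (-1.01, adjusted p = 0.00683) and KLF5 (-0.51, adjusted p = 0.000182) fell. CEBPA had the highest level of the list, at 108 ± 1.69 FPKM (SD, n = 3) in Huh7 P and 164 ± 7.76 FPKM (SD, n = 3) in Huh7 LR.

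In the cadherin family, which includes CDH1 and CDH2, 10 of 22 genes were tested, with 5 (50%) higher, 1 (10.0%) lower and a median log2 fold change of 0.36. Besides CDH1, CDH6 (log2 fold change 2.87, adjusted p = 1.21e-05 by edgeR's test), CDH26 (1.27, adjusted p = 6.76e-05) and CDH9 (1.10, adjusted p = 0.000597) were higher from low levels of 2.87 CPM or less in Huh7 P, CDH24, named here to complete the count, was higher at 24.2 CPM in Huh7 P and 32.5 CPM in Huh7 LR (0.42, adjusted p = 0.00219), and CDH12 was lower (-1.34, adjusted p = 2.54e-06). The most abundant cadherin per length in Huh7 P was CDH17, the liver-intestine cadherin, at 83.7 ± 1.94 FPKM (SD, n = 3), with 90.0 ± 6.13 FPKM (SD, n = 3) in Huh7 LR (log2 fold change 0.08, adjusted p = 0.397).

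Of 54 mesenchymal structural and matrix genes, 10 had no counts and 34 were tested. Of the 34, 16 (47.1%) were higher and 6 (17.6%) lower, with a median log2 fold change of 0.26. WNT5B, which encodes a secreted signalling protein (3.48, adjusted p = 5.85e-07 by edgeR's test), the collagen gene COL1A1 (1.84, adjusted p = 9.12e-05) and PLAU, which encodes urokinase (1.64, adjusted p = 5.52e-06), rose most. Their levels stayed low, at 5.19, 4.59 and 9.62 CPM in Huh7 LR. COL1A1 is also one of the fibroblast markers whose summed level is given above, and the part of another cell type in its rise was not tested.

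The most abundant gene of this list, the fibrillar collagen gene COL5A2, went from 121 ± 7.83 FPKM (SD, n = 3) to 180.1 ± 5.52 FPKM (SD, n = 3), which is 0.54 on the log2 scale (adjusted p = 0.000101 by edgeR's test). CD44, a hyaluronan receptor (log2 fold change -2.78, adjusted p = 4.99e-05), the intermediate filament gene NES (-1.64, adjusted p = 6.77e-07) and the urokinase receptor gene PLAUR (-1.32, adjusted p = 0.000326) fell most. NES had 86.0, 82.7 and 75.7 CPM in Huh7 P and 24.2, 30.1 and 24.1 CPM in Huh7 LR, a difference opposite to that of VIM. Urokinase and its receptor likewise moved in opposite directions.

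Fibronectin is bound by integrins and syndecans. Of 13 receptors 9 were tested, with 4 (44.4%) higher, 1 (11.1%) lower and a median log2 fold change of 0.20. The integrin genes ITGB3 (log2 fold change 1.08, adjusted p = 5.92e-05 by edgeR's test) and ITGB8 (0.67, adjusted p = 0.000674) and the syndecan gene SDC4 (0.70, adjusted p = 1.61e-05) rose, while ITGB5 fell (-0.25, adjusted p = 0.0141, but 0.062 without Huh7 LR replicate 3 and 0.0742 without Huh7 P replicate 2). ITGB1, whose product pairs with the alpha5 chain in the classical fibronectin receptor, was the most abundant, at 142 and 156 FPKM (log2 fold change 0.10, adjusted p = 0.279). ITGA5, the gene of that alpha5 chain, was far lower, at 0.791 FPKM in Huh7 P and 0.837 FPKM in Huh7 LR. It did not pass either (log2 fold change 0.06, adjusted p = 0.784 by edgeR's test).

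In the S100 family, which includes S100A4, 10 of 19 genes were tested, with 3 (30%) higher, 3 (30%) lower and a median log2 fold change of -0.46. S100A1 (log2 fold change 2.04, adjusted p = 9.7e-05 by edgeR's test) and S100A13 (0.47, adjusted p = 0.00491) were higher, and S100P (-1.71, adjusted p = 3.17e-05) and S100A11 (-0.69, adjusted p = 6.36e-05) were lower. S100A10, the most abundant per length, went from 237 to 215 FPKM and did not pass (adjusted p = 0.197). S100A4 itself, at 2.46 FPKM in Huh7 P, was far below it.

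Of 25 genes of TGF-beta signalling, a pathway known to induce EMT, 22 were tested, with 9 (40.9%) higher, 3 (13.6%) lower and a median log2 fold change of 0.05. The genes named as latent TGF-beta binding proteins differed from each other. LTBP1 (log2 fold change 2.91, adjusted p = 2.35e-07 by edgeR's test), LTBP3 (0.97, adjusted p = 4.09e-06) and LTBP2 (0.69, adjusted p = 0.000806) rose, and LTBP4 fell (-0.45, adjusted p = 0.0274, and 0.0725 to 0.118 without Huh7 LR replicate 2 or 3 or without Huh7 P replicate 1 or 2). The ligand gene TGFB1 (-0.41, adjusted p = 0.00474) and the signal transducer gene SMAD2 (-0.34, adjusted p = 0.00186) also fell, and the corepressor gene TGIF1, the most abundant of the list, rose (0.25, adjusted p = 0.0306, and 0.0896 to 0.108 without Huh7 LR replicate 1 or without Huh7 P replicate 2 or 3). SMAD2 and LTBP4 did not pass with limma-trend on FPKM. Named here to complete the count, TGFB2 (log2 fold change 0.64), SMAD3 (0.60), SMAD7 (0.45), SMAD4 (0.33) and TGFBR2 (0.25) were higher. The ligand, receptor and SMAD genes thus did not move in 1 direction.

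Of 23 other transcription factors and cofactors of EMT 16 were tested, and here more genes were lower (7, or 43.8%) than higher (5, or 31.2%), with a median log2 fold change of -0.19. The chromatin protein genes HMGA2 (-1.12, adjusted p = 2.06e-06 by edgeR's test) and HMGA1 (-0.72, adjusted p = 5.78e-05) fell most. LEF1, a nuclear partner of beta-catenin (1.69, adjusted p = 1.45e-06), SNAI3, the third SNAI gene (1.21, adjusted p = 0.000841), and FOXQ1 (0.39, adjusted p = 0.00963) rose most. Without Huh7 P replicate 3, 3 genes were higher and 4 lower, and FOXQ1 was not past 0.05 (adjusted p = 0.0509). SNAI3 stayed at 2.43 CPM in Huh7 LR. YBX1, a nucleic acid binding protein gene with the highest level of the list, fell from 493 ± 10.7 FPKM (SD, n = 3) to 368 ± 22.5 FPKM (SD, n = 3) (-0.45, adjusted p = 0.00047). HMGA1 and YBX1 have processed pseudogenes, so their counts are uncertain where reads could be split. TWIST2, like TWIST1, had 0 counts in all 6 libraries and was named after its value was seen.

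**Figure D4:**
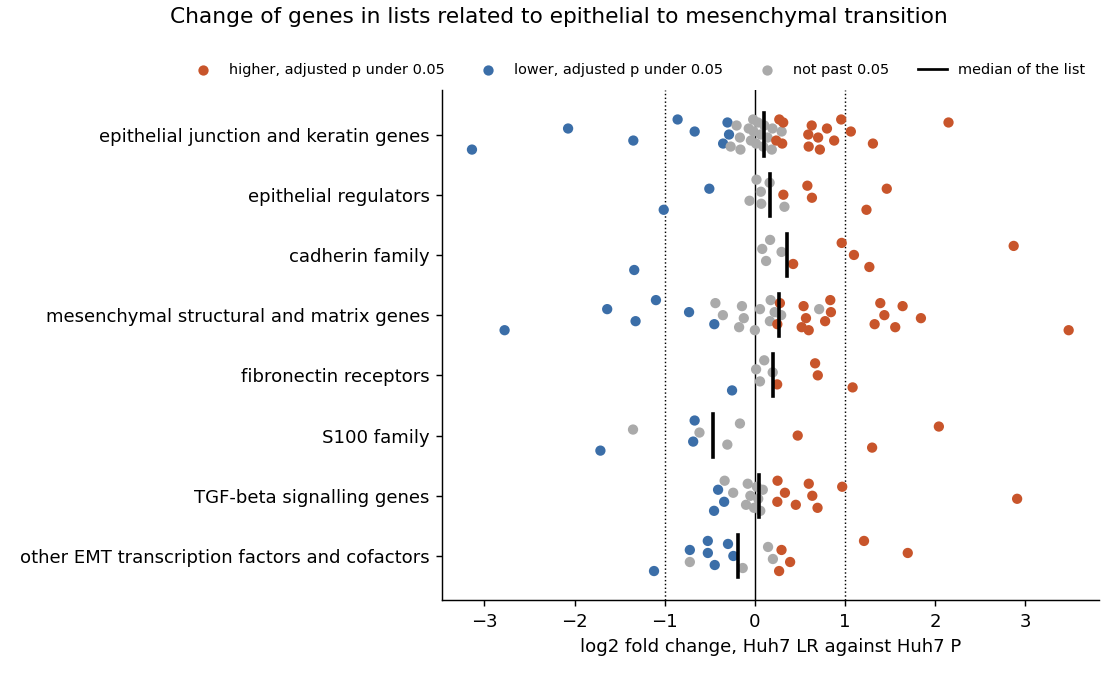
Log2 fold change in Huh7 LR against Huh7 P of each tested gene in the 8 related lists (horizontal axis), coloured by an adjusted p under 0.05 from edgeR's quasi-likelihood test, with a black line at the median of each list and dotted lines at 2-fold. The lists hold genes on both sides of 0, with medians from -0.46 (S100 family) to 0.36 (cadherin family).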

How the data were processed

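RNA was sequenced from 3 Huh7 P and 3 Huh7 LR samples, grouped by their titles. According to the labels, poly(A) RNA was isolated and libraries were made with a NEBNext Ultra kit. The labels also describe extraction from honeybee larvae, and the submitters' processing notes name mm10, TopHat2, Cufflinks and DESeq without role, whereas the identifiers are human. The paper's text names no aligner, counting program or genome build. The authors deposited raw read counts per gene, without normalization, and FPKM values, which they scaled for transcript length and library size.

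Counts were tested in R 4.3.3 with edgeR 4.0.16 (filterByExpr with a minimum count of 10 and a minimum total of 15, TMM factors, quasi-likelihood test, no covariate) with Benjamini-Hochberg adjustment over all 17531 genes and loci tested. The biological coefficient of variation was 12.7%. Standard errors (SE) come from the fitted log2 difference and its F value. Alternatives were DESeq2 1.42.0, limma 3.58.1 (limma-trend on log2 FPKM with 0.1 or 1 added, genes with at least 0.5 FPKM in 3 libraries), other filters and size factors, a replicate block and each library left out. On simulated data for this comparison (17244 genes tested), edgeR recovered 199 of 200 changed genes and called 21 unchanged ones. Recovery of differences as small as those of the members was not tested separately. In the measured data 8016 of 17531 genes and loci had an adjusted p under 0.05, and recovery with so many changed genes was not tested.

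The members and lists were chosen with earlier results of these data known, so list counts are descriptions without a set test. Named from each list were up to 3 genes in each direction with the largest change among those with an adjusted p under 0.05 and at least 1 CPM in a line, and the gene with the highest FPKM. A gene named by this rule is not reported here. Coordinates are from GENCODE release 29 (GRCh38), and windows before starts from RefSeq (GRCh38.p14). Figures were drawn with matplotlib 3.10.9.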

Additional observations from a re-analysis of the deposited data

How the results depend on the processing

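CDH1, VIM, FN1 and ZEB1 kept their direction and an adjusted p under 0.05 under all 14 alternatives. Their log2 fold changes lay at 0.90 to 1.005, 1.15 to 1.24, 0.51 to 0.73 and -1.36 to -0.92, and CDH2 did not pass under any (0.08 to 0.15). Under DESeq2's Wald test S100A4 had -0.67 (adjusted p = 0.0631) and 1 member was lower, as it was at an adjusted p under 0.001 without a fold threshold. On log2(FPKM + 1), 1 member was called past 2-fold. With each library left out, 1 to 2 members were lower, 2 to 3 were called past 2-fold, S100A4 lay between -0.79 and -0.56 and SNAI1 between -0.31 and 0.11. KRT8 lay between -0.39 and 0.0046, reversing without Huh7 LR replicate 1 and passing (adjusted p = 0.0186) without Huh7 LR replicate 2. Over the same settings 3 to 6 of the other transcription factors were higher and 4 to 7 lower, with 3 and 4 without Huh7 P replicate 3, and 0 to 1 fibronectin receptors were lower. With limma-trend on either scale, 1 epithelial regulator and 1 TGF-beta gene were lower. The regulator EHF lay under the 0.5 FPKM filter of these fits and was not tested there. On log2(FPKM + 1), which shrinks the change of low genes, the log2 fold change was -0.41 for S100A4, -0.92 for CD44, -0.64 for PLAUR, 1.40 for WNT5B, 1.36 for CLDN14, 1.12 for LTBP1, 0.95 for LEF1, 0.77 for KLF4, 0.72 for CDH9, 0.64 for MARVELD3, 0.59 for CDH26, 0.57 for SNAI3, 0.56 for COL1A1 and 0.27 for LTBP2, still past 0.05, and -0.19 for LTBP4 and -0.12 for SMAD2, which did not pass. The ratio of CDH2 to CDH1 stayed between 0.527 and 0.591 times the Huh7 P level. The cause of these changes was not tested.

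Same-numbered samples correlated at 0.03 in their deviations from the line means, and samples of different number at -0.0279 to -0.0021. These correlations were weak, although each sample correlated best with its own number. With the replicate block, 4089 of the genes tested passed as higher and 4033 as lower, beside 4093 and 3923 without it, and the same 3 higher and 2 lower members passed. Past 2-fold, limma-trend on log2(FPKM + 1) called 268 higher and 84 lower, beside 776 and 312. Adding overlapping genes to the members was not run, since the antisense genes that share exon bases with members, such as VIM-AS1 and ZEB1-AS1, were not analysed here and no gene with counts used here does so. Depth limits ZEB2, SNAI2 and TWIST1, and the low counts of S100A4.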

Other observations

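Replicate 2 of Huh7 LR was the highest of its line for FN1, VIM and CDH2 and the lowest for CDH1, ZEB1 and SNAI1. CDH1 was thus lowest within the resistant line where VIM and FN1 were highest, although all 3 genes were higher in Huh7 LR than in Huh7 P. In Huh7 P, CDH1 and FN1 were lowest and VIM highest in replicate 3, over a range of 132 to 139 CPM for VIM. Among the keratins, KRT8 had 949, 1643 and 1223 CPM in Huh7 LR and was highest in the same library as VIM. With 3 libraries in each line these orders were not tested. Without Huh7 LR replicate 2, 4135 of 17925 genes and loci tested passed as higher and 3984 as lower, at an adjusted p under 0.05. With all libraries 4093 and 3923 of 17531 passed, and leaving out any other library lowered both counts.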
